A study of Mus musculus with 20 samples.

Results

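Ovaries of old dwarf mice were compared with ovaries of young normal mice, the 2 corners of an age by genotype cross that differ in both age and genotype. The old dwarf group held 5 female df/df mice of the Ames dwarf stock at 22 months, and the young normal group held 5 female N/df mice of the same stock at 6 months. These 10 libraries, chosen by the genotype and age in their labels, were part of 20; the others came from 5 dwarf mice at 6 months and 5 normal mice at 22 months, which share their genotype or their age with one of the groups compared. Each library was made from polyadenylated RNA of the ovaries of 1 mouse, and the values are counts of reads per gene, of which 16099 of 23457 genes were tested. By their genotype the N/df mice are carriers of the recessive df allele, so every mouse of the comparison carries it. The study is about reproductive ageing of the ovary in this long-lived stock, and this comparison asks which ovarian transcripts of old dwarf mice still lie close to the level of young normal ovaries.

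Ames dwarf mice lack growth hormone, prolactin and thyrotropin from the pituitary. Their circulating IGF1 is very low and they outlive their normal littermates. The defect lies in the pituitary, so ovarian RNA gives no direct check of the genotype labels. In a normal ovary the oocytes lie in follicles, whose granulosa and theca cells make oestrogen and androgen. After ovulation the follicle becomes a corpus luteum, a vascular gland that takes up cholesterol and makes progesterone, and in mice prolactin sustains it. The follicle store is finite and falls with age, while stroma, immune cells and surface epithelium come to fill more of the organ. In a whole-ovary library, fewer cells of a type and less RNA per cell cannot be told apart.

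Total counts per library ran from 5399377 to 13448164 in the old dwarf group and from 1365640 to 22429386 in the young normal group, where replicate 3 was the shallowest. Levels below are in CPM, counts relative to the size of the library, with sizes scaled between libraries by the TMM method; per-library values are always listed in the order of replicates 1 to 5. Changes are log2 differences, dwarf at 22 months minus normal at 6 months, with their standard error (SE), n = 5 libraries in each group. A gene was called when its adjusted p in edgeR's quasi-likelihood test, over all tested genes, was under 0.05. A gene was counted as within 2-fold when the whole 95% interval of its change lay between -1 and 1, which is a separate criterion from the call. One library did not resemble its group: normal 6-month replicate 2 correlated at 0.806 with the mean of its own group over genes, at 0.922 with the old dwarf mean and at 0.937 with the old normal mean. It held 4775 CPM of Ovgp1, the oviductal glycoprotein, against 9.73 to 60.0 CPM in the other 4, and it had the lowest luteal and oocyte scores of its group. Results are therefore given with all libraries and, where it matters, without that library.

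Of the 16099 genes, 2086 were called, 13.0% of those tested. Higher in old dwarf ovaries were 631 genes (3.92%) and lower were 1455 (9.04%), so that 30.2% of the called genes were higher. With upper quartile scaling 43% of 1752 called genes were higher. The 95% interval lay within 2-fold for 8321 genes (51.7%), of which 565 were also called, with changes of at most 0.75 in size. The remaining 6257 genes (38.9%) were neither called nor bounded within 2-fold, and for them the libraries do not say whether old dwarf and young normal ovaries are alike. Without normal 6-month replicate 2, 4800 of 16272 genes were called (16.5% higher, 13.0% lower) and 8024 (49.3%) were within 2-fold. Of the 2086 called with all libraries, 1941 were called without it too, each in the same direction. The groups did not overlap at all for 1213 genes (7.53%), and 954 of these were called (5.93%). A fit of the 10 libraries alone, without the other groups' information on the spread, called 513 genes.

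**Figure D1:**
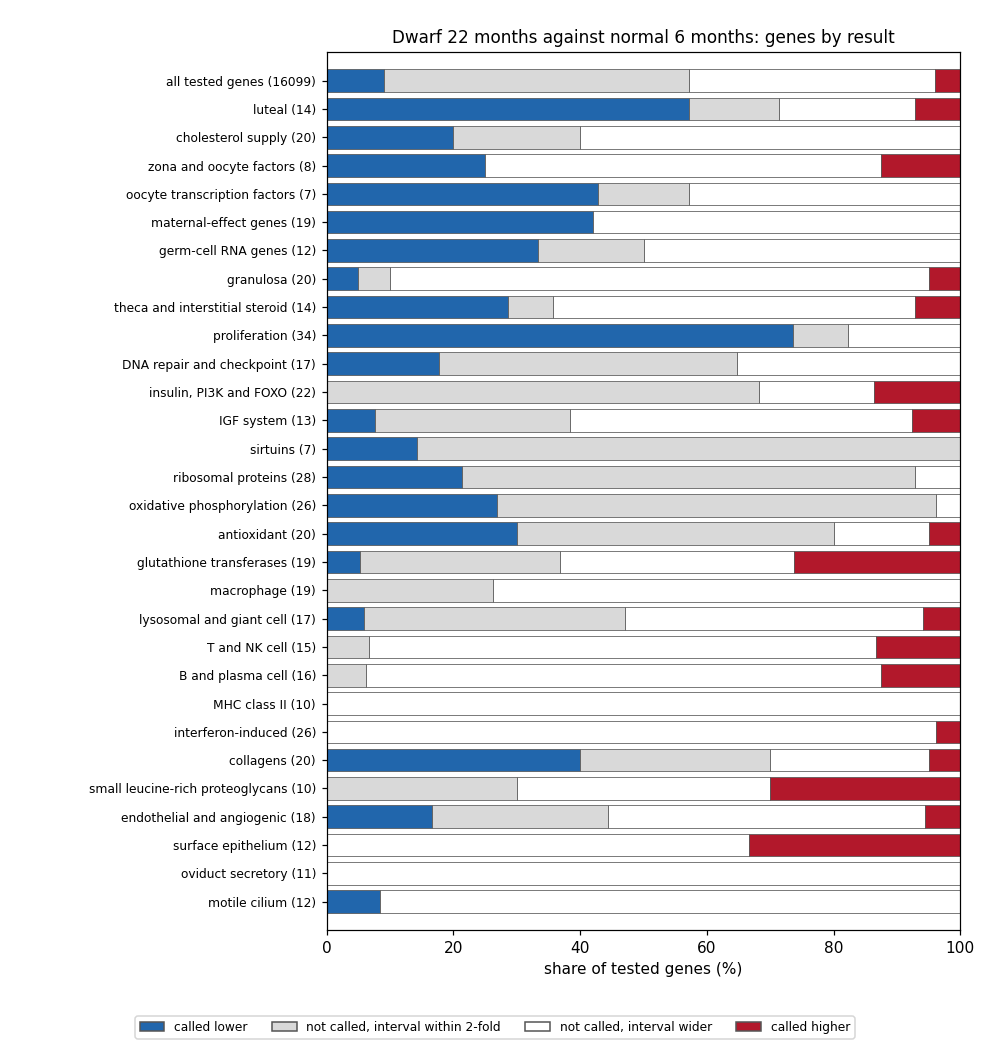
Share of tested genes (%) of each list that was called lower (blue), called higher (red), not called with an interval within 2-fold (grey) or neither (white), dwarf at 22 months against normal at 6 months, with the number of tested genes in brackets. Proliferation and luteal genes have the widest blue bars (25 of 34 and 8 of 14), while sirtuins, ribosomal proteins and oxidative phosphorylation are mostly within 2-fold or called lower by a small change.

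Most tested genes of the corpus luteum were lower in old dwarf than in young normal ovaries. Of 14 tested luteal genes 8 were lower and 1, the oestrogen sulfotransferase gene Sult1e1, was higher, against 9.04% and 3.92% of all genes, and the median change was -2.92 against -0.04 over all genes. Cyp11a1 (chr9:58015017-58027023, plus strand), the side-chain cleavage enzyme that starts steroid synthesis, was at 4125, 24.7, 2829, 2949 and 2984 CPM in the 5 young normal libraries and at 221, 62.2, 214, 215 and 188 CPM in the 5 old dwarf libraries. Every old dwarf library was far below 4 of the young normal libraries, and only replicate 2 of the young normal group was lower still. The change was -3.84 ± 0.83 (adjusted p = 0.0069), and -4.09 without that replicate (adjusted p = 4.9e-05). Sfrp4 (chr13:19623175-19632823, plus strand), a secreted Wnt inhibitor known from corpora lutea, stood at 1333, 36.7, 1523, 1273 and 848 CPM in the young normal replicates and at 17.8, 24.0, 18.2, 14.5 and 35.7 CPM in the old dwarf ones. Here the groups did not overlap even with replicate 2, which lay just above the highest old dwarf library, and the change of -5.51 ± 0.88 (adjusted p = 0.00099) was the largest fall among called genes whose groups did not overlap and whose higher mean was at least 2 CPM.

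Transcripts of proteins that feed this pathway fell as well. Fdx1, the ferredoxin that passes electrons to the mitochondrial P450 enzymes, fell by 3.24 ± 0.59 (adjusted p = 0.0024). Scarb1, the receptor that takes up lipoprotein cholesterol, fell by 2.88 ± 0.61 (adjusted p = 0.0063). Of 20 genes of cholesterol synthesis and supply 4 were lower and none was higher, where 9.04% of all genes were lower. Without replicate 2, 9 of the 20 were lower, against 13.0% of all genes, and 1 was higher. Among them Fdps, which makes farnesyl diphosphate, changed by -2.33 ± 0.48 and Mvd, a mevalonate pathway decarboxylase, by -1.86 ± 0.38. By contrast Srebf2, the transcription factor of the pathway, was within 2-fold (-0.32 to 0.42). Star, which carries cholesterol into mitochondria, fell by 1.96 ± 0.59 (adjusted p = 0.035), and Lhcgr, the luteinizing hormone receptor, by 2.74 ± 0.83 (adjusted p = 0.036).

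The calls of Sfrp4, Fdx1, Fdps and Mvd held in each of 23 alternative analyses with the same threshold. That of Cyp11a1 held in 21 and was lost in the fit of 10 libraries and with the oviduct score as a covariate, where the change was -2.28. That score, a mean over oviduct markers, was higher in all old dwarf libraries than in every young normal library except replicate 2. A call lost with it therefore does not show that the groups are alike. The calls of Star and Lhcgr held in only 11 and 10 alternatives, with changes of -2.32 to -0.49 and -3.17 to -0.75. For comparison, mean Cyp11a1 was 167 ± 98.9 CPM in 6-month dwarf and 1987 ± 1389 CPM in 22-month normal ovaries (SD, n = 5), and mean Sfrp4 was 10.6 ± 7.70 and 762 ± 722 CPM. Old dwarf ovaries lay near the young dwarf means in both genes, and were lower than old normal ovaries (Cyp11a1 -3.46 ± 0.81, adjusted p = 0.023, and Sfrp4 -5.12 ± 0.86, adjusted p = 0.0026, dwarf against normal at 22 months, sharing the old dwarf libraries with the main comparison).

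Several secreted proteins and redox enzymes were lower too. Tnc, the matrix protein tenascin C, was at 1256, 18.1, 514, 902 and 409 CPM in the young normal replicates and at 19.8, 10.4, 21.6, 15.9 and 11.4 CPM in the old dwarf ones, a change of -5.29 ± 0.82 (adjusted p = 0.00076). All old dwarf libraries lay far below the 4 other young normal libraries, while replicate 2 overlapped them. Timp1, a metalloprotease inhibitor, changed by -3.40 ± 0.66, Spp1 (osteopontin) by -2.32 ± 0.58, Mgst2, a microsomal glutathione transferase, by -3.95 ± 0.75 and Wnt4 by -1.45 ± 0.39, each called. Hmox1, haem oxygenase, and Srxn1, sulfiredoxin, fell by 1.54 and 1.52, 2 of 6 antioxidant genes that were lower among 20 tested, with 1 higher. Of all genes 9.04% were lower and 3.92% higher. Without normal 6-month replicate 3 the antioxidant genes called lower were 1 in number, where 6.05% of all genes were lower, and the call of Hmox1 was lost. Not every gene of the luteal list moved: Rgs2, a regulator of G protein signalling, was within 2-fold (-0.82 to 0.41), and so was Parm1 (-0.69 to 0.65).

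Prolactin and growth hormone act through JAK2 and STAT5, and Cish, a feedback inhibitor induced by STAT5, is one of the standard readouts of this pathway. Cish (chr9:107296689-107301961, plus strand) was at 112, 20.0, 68.8, 43.9 and 83.3 CPM in the 5 young normal libraries and at 9.40, 8.42, 7.67, 7.83 and 6.78 CPM in the 5 old dwarf libraries. No old dwarf library reached the lowest young normal one, which was again replicate 2. The change was -3.03 ± 0.50 (adjusted p = 0.0012), and it was -3.19 without that replicate. Mean levels of 8.17 ± 1.62 CPM in 6-month dwarf and 38.8 ± 36.5 CPM in 22-month normal ovaries put the old dwarf ovaries beside the young dwarf ones. The call held in all 23 alternatives. Of the 14 tested genes of the pathway, Cish was the 1 called with all libraries, where 13.0% of all genes were called. The prolactin receptor Prlr stood at -1.09 ± 0.59 (adjusted p = 0.23, and -1.34 with adjusted p = 0.011 without replicate 2), the growth hormone receptor Ghr at 0.60 ± 0.22 (adjusted p = 0.082), and Socs3, another feedback inhibitor, was within 2-fold (-0.61 to 0.17).

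The start of Cish carries the sequence to which STAT5 binds, TTCNNNGAA, which reads the same on both strands. The stretch shown runs from 150 bases before to 30 bases after the start in RefSeq (GRCm38.p6, chr9:107296509-107296688, plus strand), with both matches in capitals; they lie within the last 30 bases before the start of the gene in the deposited annotation.
Cish: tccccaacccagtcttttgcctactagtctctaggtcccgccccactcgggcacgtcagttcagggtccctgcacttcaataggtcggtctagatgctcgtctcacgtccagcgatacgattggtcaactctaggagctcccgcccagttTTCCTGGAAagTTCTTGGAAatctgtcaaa
Of 32851 RefSeq windows of 300 bases around a start, 8.3% hold at least 1 match. Among 15 genes of this report searched in the same way, Cish, C7 and Bmp15 held at least 1; C7 was higher and Bmp15 lower in old dwarf ovaries. A match describes the letters of the window and is not a measured binding site.

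A second group of steroid-related genes was near 0 in young normal ovaries and high in old dwarf ovaries. Hsd17b3 (chr13:64058274-64089201, minus strand), a 17-beta hydroxysteroid dehydrogenase best known for making testosterone in the testis, was at 0.380, 0.292, 3.58, 0.349 and 0.124 CPM in the 5 young normal libraries and at 40.4, 5.49, 42.0, 28.7 and 53.7 CPM in the 5 old dwarf libraries. The groups did not overlap; the highest young normal value came from the shallow replicate 3 and the lowest old dwarf value from replicate 2. The rise was 6.38 ± 0.78 (adjusted p = 0.00012). Cyp21a1 (chr17:34801348-34804426, minus strand), the steroid 21-hydroxylase of the adrenal cortex, was at 0.127, 1.68, 4.47, 0.655 and 0.619 CPM and at 70.6, 7.38, 80.5, 74.0 and 83.3 CPM in the same order, a rise of 6.01 ± 0.85 (adjusted p = 0.00044). Again dwarf replicate 2 was the low library of its group. Cyp21a1 has a near-identical pseudogene copy beside it, so reads may have been divided between them. Sult1e1, the oestrogen sulfotransferase, rose by 7.82 ± 0.80 from 0, 0.0731, 0.894, 0.131 and 0 CPM to 20.7, 6.62, 23.5, 19.2 and 32.3 CPM, again without overlap.

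Insl3, the insulin-like peptide of theca and Leydig cells, was at 0.761, 0.512, 3.58, 0.480 and 0.433 CPM in the 5 young normal libraries and at 7.02, 0.946, 22.9, 15.3 and 25.2 CPM in the 5 old dwarf libraries, a rise of 4.42 ± 0.75 (adjusted p = 0.0015). Dwarf replicate 2 overlapped the young normal range, and exons of Insl3 overlap those of Jak3 on the same strand. Ptgds, the lipocalin-type prostaglandin D synthase, rose by 4.37 ± 0.72 to a mean of 1884 ± 1005 CPM (SD, n = 5), and C7, the terminal complement component, by 4.92 ± 0.58 to 102 ± 45.7 CPM. Kit, the receptor of oocytes, theca and mast cells, was at 32.2, 42.2, 29.5, 59.7 and 42.1 CPM in the young normal and 263, 146, 282, 278 and 405 CPM in the old dwarf replicates and rose by 2.72 ± 0.33. All 5 old dwarf libraries were above all 5 young normal ones. Cbln4, a secreted synaptic protein, had no count in any young normal library and a mean of 3.86 ± 2.09 CPM in old dwarf ovaries, which is at least 79.6-fold higher against a floor of 3 counts over the young normal group. The synaptic adhesion gene Elfn2 rose by 4.83 ± 0.73, whereas its relative Elfn1 fell by 4.52 ± 0.50.

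Some detoxifying enzymes were among the genes that rose. Of 19 glutathione transferases 5 were higher, against 3.92% of all genes, 1, Mgst2, was lower, and 8 of the changes were below 0. Gsta3, whose product also isomerises steroids, rose by 3.23 ± 0.40 (adjusted p = 0.00014); members of this family resemble each other in sequence. Nqo1, a quinone reductase, rose by 1.72 ± 0.25. Igf2, a growth factor best known from the fetus, was at 28.9, 24.0, 26.8, 24.0 and 21.5 CPM in the young normal and 103, 61.4, 77.9, 103 and 121 CPM in the old dwarf replicates and rose by 1.90 ± 0.21 (adjusted p = 9.0e-05), with no overlap; its exons overlap an antisense gene. Nr0b1, the orphan receptor DAX1 that represses steroid genes, rose by 1.91 ± 0.44, a call lost only in the fit of 10 libraries. The calls of Hsd17b3, Cyp21a1, Sult1e1, Insl3, Ptgds, C7, Kit, Elfn2, Gsta3, Nqo1 and Igf2 held in each of 23 alternatives, and all of these except Nqo1 were also called in a test against a 2-fold change, which 56 genes passed.

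These genes were at similarly low levels in old normal ovaries. In 22-month normal ovaries the means were 0.209 ± 0.102 CPM for Hsd17b3, 1.54 ± 1.37 for Cyp21a1, 0.119 ± 0.154 for Sult1e1, 0.668 ± 0.353 for Insl3 and 42.4 ± 12.8 for Ptgds (SD, n = 5). In 6-month dwarf ovaries they were 29.5 ± 17.1, 42.2 ± 23.9, 10.9 ± 5.18, 67.9 ± 27.2 and 4459 ± 1891 CPM, in the same order. Each of the 5 genes was called higher in dwarf than in normal mice at 6 months (2.27% of all genes) and at 22 months (1.96%), comparisons that each share a group with the main one. Acsm3, an acyl-CoA synthetase, was different: it was at 0.743 ± 0.202 CPM in 6-month dwarf and 2.15 ± 1.48 CPM in 22-month normal ovaries, and rose by 4.52 ± 0.51 to 13.2 ± 4.30 CPM in old dwarf ovaries. Its exons overlap those of Eri2 on the other strand. Cyp17a1, the theca enzyme of androgen synthesis, was unresolved at -0.29 ± 0.89 (interval -2.15 to 1.57).

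**Figure D2:**
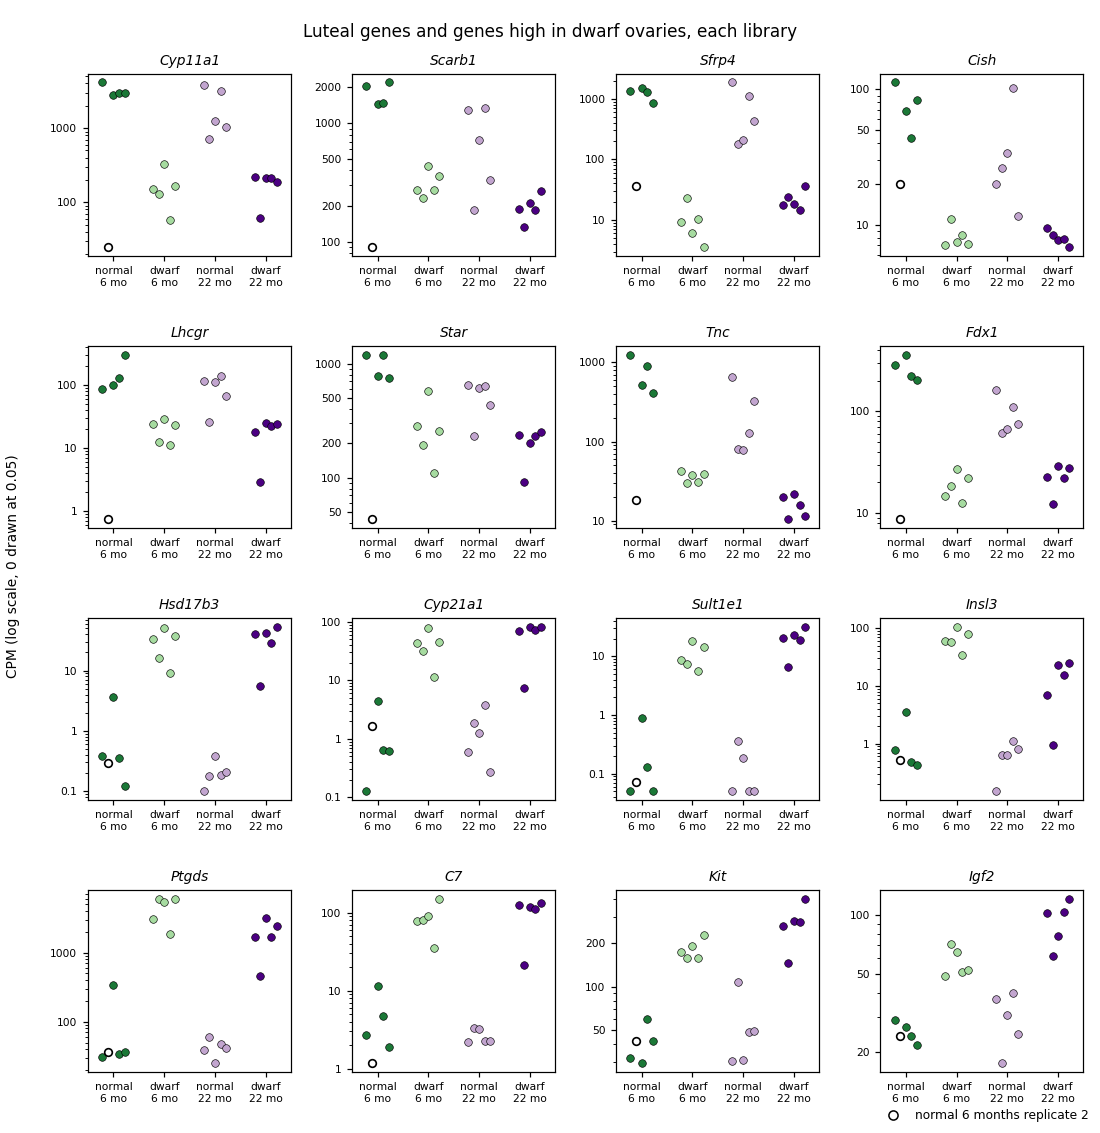
CPM (log axis, values of 0 drawn at 0.05) of 16 genes in each of the 20 libraries by group; the open circle is normal 6-month replicate 2. In the upper 8 panels the old dwarf libraries lie with the young dwarf ones under most normal libraries, and in the lower 8 panels both dwarf groups lie above the normal groups except for dwarf 22-month replicate 2 in Insl3, a library that is also low among its group in Hsd17b3 (5.49 CPM) and Cyp21a1 (7.38 CPM).

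Oocyte transcripts were lower in old dwarf than in young normal ovaries, but not lost. Of 19 maternal-effect genes, which oocytes store for the early embryo, 8 were lower and none was higher (median -2.00), where 9.04% of all genes were lower. Without normal 6-month replicate 2, 18 were lower (median -2.24), where 13.0% of all genes were. Without normal 6-month replicate 3, only 3 were lower (median -1.91), where 6.05% of all genes were. Among 8 genes of the zona and oocyte growth factors 2 were lower and Kit was higher. Without replicate 2, 6 of these were lower, and without replicate 3 none was called lower (median -1.93). Gdf9 (chr11:53433286-53437902, plus strand), the oocyte factor that drives follicle growth, was at 75.5, 1.17, 98.3, 118 and 122 CPM in the 5 young normal libraries and at 21.2, 22.8, 23.0, 25.2 and 15.0 CPM in the 5 old dwarf libraries. The old dwarf values lay close together, all under the 4 high young normal libraries, and replicate 2 of the young normal group was almost empty of the transcript. The change was -1.95 ± 0.63 (adjusted p = 0.0498) with all libraries and -2.20 (adjusted p = 8.6e-05) without replicate 2; with all libraries the call held in 6 of 23 alternatives.

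Some regulators and stored messages of the oocyte were lower as well, while most did not pass the test. Of 7 oocyte transcription factors 3 were lower, 1 was within 2-fold and 3 were unresolved. Of 12 germ-cell RNA genes 4 were lower, 2 were within 2-fold and 6 were unresolved, where 9.04% of all genes were lower. Without normal 6-month replicate 2 the lower ones were 5 and 7, where 13.0% of all genes were lower; without replicate 3 they were 1 and 3, and with the oviduct score as a covariate neither list held a call. Bmp15, the partner of Gdf9, changed by -2.42 ± 0.75 (adjusted p = 0.039, held in 9 of 23 alternatives) and Nobox, a transcription factor of early follicles, by -2.27 ± 0.66 (adjusted p = 0.03, held in 12). Ooep (chr9:78376903-78378588, minus strand), part of the subcortical maternal complex, was at 14.7, 2.12, 19.7, 23.7 and 21.3 CPM in the young normal and 5.52, 3.41, 2.70, 4.88 and 3.75 CPM in the old dwarf replicates and fell by 2.00 ± 0.46 (adjusted p = 0.0095). Apart from replicate 2, no young normal library overlapped an old dwarf one. Zbed3 and Tle6, of the same complex, changed by -1.14 ± 0.26 and -1.45 ± 0.38, Mael, a piRNA pathway gene, by -3.04 ± 0.77, and the germ-cell poly(A)-binding protein gene Pabpc1l by -1.86 ± 0.46, each called. The calls of Ooep, Zbed3, Tle6, Mael and Pabpc1l were lost with the oviduct score as a covariate, where Ooep stood at -1.10. As that score itself differed between the groups apart from replicate 2, such a loss does not show that the groups are alike. Foxo3, which holds primordial follicles dormant and is also expressed outside oocytes, was within 2-fold (-0.22 to 0.69), as was Cpeb1, a regulator of mRNA translation (-0.38 to 0.26).

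One form of the E-box, the class of sequence that basic helix-loop-helix factors such as the oocyte regulators SOHLH1 and FIGLA bind, is CACCTG or its reverse complement CAGGTG, and it stands before the starts of Nobox and of the zona gene Zp3. Zp3 stood at -2.11 ± 0.75 (adjusted p = 0.068) with all libraries and at -2.36 (adjusted p = 0.0011) without replicate 2. Both stretches run from 150 bases before to 30 bases after the RefSeq start (GRCm38.p6), with the matches in capitals, for Zp3 at chr5:135979955-135980134, plus strand, and for Nobox at chr6:43309525-43309704, minus strand.
Zp3: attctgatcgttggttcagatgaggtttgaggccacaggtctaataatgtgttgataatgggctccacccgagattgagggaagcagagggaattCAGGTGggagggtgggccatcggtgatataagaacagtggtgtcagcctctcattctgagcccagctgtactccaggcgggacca
Nobox: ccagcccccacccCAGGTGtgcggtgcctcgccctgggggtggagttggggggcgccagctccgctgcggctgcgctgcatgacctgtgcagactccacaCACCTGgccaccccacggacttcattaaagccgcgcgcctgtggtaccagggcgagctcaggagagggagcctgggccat
Of all 32851 windows of 300 bases, 20.2% hold either form. Ooep and Bmp15 hold neither in their windows, and Insl3, which was higher, holds 1.

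Beside old normal ovaries, which share the young normal group as reference, the oocyte lists of old dwarf ovaries had smaller medians. The median change of maternal-effect genes was -2.00 in old dwarf and -3.88 in old normal ovaries, and that of zona and oocyte factors -2.09 and -4.11. Directly compared at 22 months, dwarf minus normal, 1 of 19 maternal-effect genes was called higher (1.96% of all genes), and 10 in the fit without normal 6-month replicate 2 (3.91%), a library of neither group in that comparison, whose removal changes the shared estimate of the spread. No maternal-effect gene was called lower there (1.86% of all genes with all libraries and 3.20% without that one).

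Granulosa genes were mostly unresolved. Of 20 tested, 1 was lower, 1 (Nr0b1) was higher, 1 was within 2-fold and 17 were neither, where 9.04% of all genes were lower and 3.92% higher. Amh (chr10:80805248-80807648, plus strand), the hormone of small growing follicles, was at 199.5, 4.38, 172, 318 and 182 CPM in the 5 young normal libraries and at 43.0, 53.6, 53.9, 52.9 and 36.2 CPM in the 5 old dwarf libraries. The other 4 young normal libraries were above every old dwarf library and replicate 2 was below all of them. The change of -1.87 ± 0.63 missed the threshold (adjusted p = 0.055) and was -2.12 (adjusted p = 0.00046) without replicate 2. Old dwarf ovaries had more Amh than old normal ovaries, at 7.17 ± 5.10 CPM (log2 2.78 ± 0.66, adjusted p = 0.024). Its receptor Amhr2 was within 2-fold of young normal ovaries (-0.98 to 0.94). Slc18a2, a monoamine transporter gene, changed by -2.35 ± 0.73 (held in 9 of 23 alternatives), and the follicle stimulating hormone receptor Fshr stood at -0.46 ± 0.77 (adjusted p = 0.74). Cyp19a1, the aromatase of granulosa cells, was unresolved (-4.22 to 0.20). Foxo1, a granulosa transcription factor, stood at -0.82 ± 0.28 (adjusted p = 0.06, and -0.99 and 0.00079 without replicate 2).

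Cell division genes were lower almost throughout. Of 34 tested proliferation genes 25 were lower in old dwarf ovaries, none was higher and 3 were within 2-fold (median -1.34), against 9.04% lower over all genes; without normal 6-month replicate 2, 31 were lower (median -1.55). Aurka (chr2:172356196-172370506, minus strand), a kinase of the mitotic spindle, was at 20.8, 5.77, 20.6, 25.3 and 30.0 CPM in the 5 young normal libraries and at 5.89, 6.81, 8.02, 5.98 and 5.17 CPM in the 5 old dwarf libraries. The old dwarf libraries spanned a narrow range that young normal replicate 2 shared, and the other 4 young normal libraries were well above it. It fell by 1.68 ± 0.32 (adjusted p = 0.0028). Ube2c, of the anaphase-promoting complex, changed by -1.85 ± 0.37 and Mcm2, of the replication helicase, by -1.13 ± 0.22; the calls of Aurka and Mcm2 held in all 23 alternatives and that of Ube2c was lost in the fit of 10 libraries. Ccnd2, the cyclin of granulosa cells, was within 2-fold (-0.62 to 0.66), as was Mcm4 (-0.77 to 0.14).

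Old dwarf and old normal ovaries shared this level: mean Aurka was 5.32 ± 1.15 CPM in old normal and 6.38 ± 1.09 CPM in old dwarf ovaries (interval of the difference -0.40 to 0.91), and 29.4 ± 7.90 CPM in young dwarf ovaries. No proliferation gene was called with edgeR between old dwarf and old normal ovaries with all libraries (2 of 34 at an unadjusted p under 0.05), where 1.86% of all genes were lower. Of 17 DNA repair and checkpoint genes 3 were lower and 8 within 2-fold, where 9.04% of all genes were lower and 51.7% within 2-fold. Chek1, the checkpoint kinase, changed by -2.44 ± 0.52 and Xrcc2, a recombination gene, by -0.97 ± 0.24, both calls lost in the fit of 10 libraries and with the oviduct score as a covariate, while the damage kinase Atm was within 2-fold (-0.52 to 0.38). Markers of cell cycle arrest and the senescence secretome gave no call with edgeR and all libraries (0 of 15, 3 at an unadjusted p under 0.05). DESeq2 called 1 lower, and limma voom called 3 higher and 3 lower. Without normal 6-month replicate 2, edgeR called 3 higher and 3 lower (20% each way), where 16.5% and 13.0% of all genes were. Cdkn2a, which encodes p16 and ARF, was at 3.55, 1.24, 1.79, 2.71 and 0.742 CPM in the young normal and 2.63, 1.42, 3.20, 0.589 and 0.892 CPM in the old dwarf replicates, fully overlapping (-0.19 ± 0.49, interval -1.21 to 0.84), and it was lower than the 6.00 ± 2.06 CPM of old normal ovaries (log2 -1.76 ± 0.48, adjusted p = 0.0451).

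**Figure D3:**
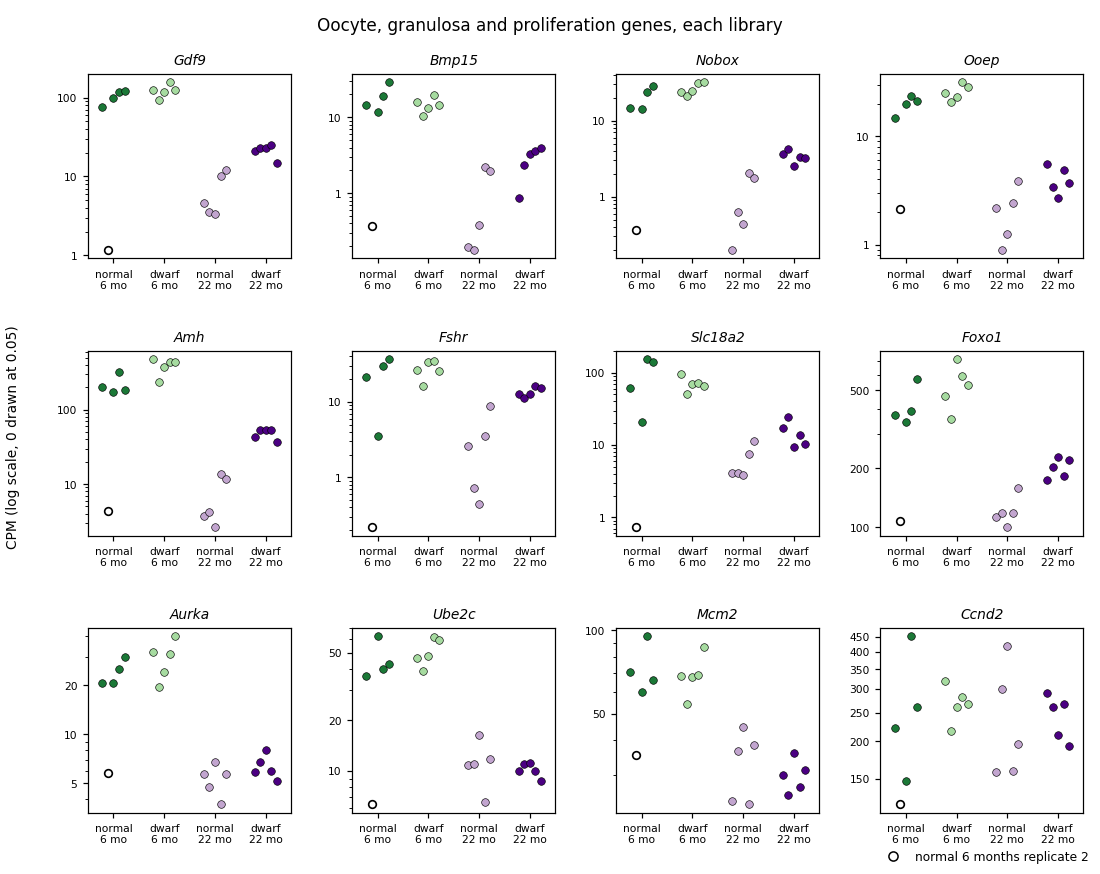
CPM (log axis, values of 0 drawn at 0.05) of 12 oocyte, granulosa and proliferation genes in each of the 20 libraries by group; the open circle is normal 6-month replicate 2. In Gdf9, Bmp15, Nobox and Amh the old dwarf libraries lie below 4 of the young normal libraries and above most old normal libraries, and in Aurka, Ube2c and Mcm2 the old groups of both genotypes share a level.

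With all libraries Igf1 and Gli1 in old dwarf ovaries were within 2-fold of young normal ovaries and higher than in old normal ovaries. The test for a difference between the genotypes in the change with age called neither gene. Igf1 (chr10:87859056-87937047, plus strand), which granulosa cells make and which growth hormone induces in liver, was at 53.7, 90.9, 55.4, 53.5 and 96.8 CPM in the 5 young normal libraries and at 79.2, 51.4, 87.6, 84.9 and 142 CPM in the 5 old dwarf libraries. The ranges overlapped widely and the interval of the change was -0.29 to 0.96. Old normal ovaries had 34.9 ± 15.8 CPM, below the old dwarf ovaries (log2 1.35 ± 0.30, adjusted p = 0.017) and below young normal ones (-1.01 ± 0.30, adjusted p = 0.0489). Without normal 6-month replicate 2 the interval of Igf1 reached 1.16, past 2-fold. Gli1, a target and effector of hedgehog signalling in theca cells, was at 91.3, 37.3, 133, 79.2 and 111 CPM in the young normal and 95.8, 88.6, 94.9, 94.3 and 129.6 CPM in the old dwarf replicates. Its interval was -0.43 to 0.76, and it was higher than in old normal ovaries (40.2 ± 17.5 CPM, log2 1.33 ± 0.29, adjusted p = 0.015). Exons of Gli1 overlap those of Arhgap9 on the other strand.

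Most macrophage transcripts were unresolved against the young normal level. Of 17 lysosomal and giant cell genes 1 (Gpnmb) was higher, 1 (Spp1) was lower, 7 were within 2-fold and 8 were unresolved. Of all genes 3.92% were higher and 9.04% lower. Ctsd (chr7:142375916-142387870, minus strand), the lysosomal protease cathepsin D, was at 758, 769, 1138, 604 and 647 CPM in the 5 young normal libraries and at 679, 603, 717, 665 and 758 CPM in the 5 old dwarf libraries. Old dwarf libraries lay in the lower part of the young normal range, with replicate 2 at its edge (interval of the change -0.67 to 0.29). Old normal ovaries were at 1819 ± 767 CPM, so that old dwarf ovaries were lower than they (-1.41 ± 0.23, adjusted p = 0.002). Tyrobp, a signalling adaptor of myeloid cells, was within 2-fold of young normal ovaries (-0.66 to 0.78) and lower than in old normal ones (-1.28 ± 0.34, adjusted p = 0.04). The lysosomal glycoprotein gene Cd68 was within 2-fold as well (-0.74 to 0.74), and so was C1qa, a complement subunit made by macrophages (-0.81 to 0.92), though C1qa left that range without replicate 2 and no macrophage gene stayed in it without replicate 3, where 54.4% of all genes did. Over 19 macrophage genes none was called with edgeR with all libraries or without either replicate (2 at an unadjusted p under 0.05 with all libraries, 0 with DESeq2 and 2 higher with limma voom), 5 were within 2-fold, against 51.7% of all genes, and 14 were unresolved. Of their changes 17 were above 0, with a median of 0.52, against 1.52 in old normal ovaries. The macrophage score (mean log2 CPM) of normal 22-month replicate 3 was 6.37. It was 4.385 to 5.28 in the other old normal libraries and 3.96 to 4.79 in the old dwarf ones, so these ranges overlapped. Gpnmb, a marker of lipid-laden macrophages, did rise (1.79 ± 0.56, adjusted p = 0.041, held in 13 of 23 alternatives).

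Most genes of insulin signal transduction were at the young normal level, while most of the IGF system was unresolved. Of 22 genes of insulin, PI3K and FOXO signalling 16 were within 2-fold, against 51.7% of all genes. In this list 3 were higher and none was lower, where 3.92% and 9.04% of all genes were. Without normal 6-month replicate 2, 4 were higher and 3 lower, where 16.5% and 13.0% of all genes were. DESeq2 with all libraries called 4 higher and 2 lower. Rptor and Rps6kb1, of the TOR pathway, had intervals of -0.33 to 0.33 and -0.31 to 0.32. Of 13 genes of the IGF system 4 were within 2-fold, 1 (Igf2) was higher, 1 (Igfbp2) was lower and 7 were unresolved. That is 7.69% each way, beside 3.92% and 9.04% of all genes. Without normal 6-month replicate 2, 4 were higher and 2 lower, beside 16.5% and 13.0% of all genes. The receptors Igf1r and Igf2r were within 2-fold (-0.37 to 0.55 and -0.48 to 0.14). The genes that rose were Pdk1, a mitochondrial kinase that restrains pyruvate oxidation and is no insulin signalling kinase itself (1.39 ± 0.19, adjusted p = 0.00024), Pik3r1, the regulatory subunit of PI3K (0.90 ± 0.18, adjusted p = 0.0045), and by a small margin the stress-induced Sesn1 (0.46 ± 0.14, adjusted p = 0.039, held in 12 of 23 alternatives). Pdk1 was at 15.3, 18.2, 11.6, 18.6 and 19.7 CPM in the young normal and 43.8, 41.7, 53.6, 40.1 and 43.5 CPM in the old dwarf replicates, with no overlap. Igfbp2, an IGF-binding protein, fell by 0.85 ± 0.24 (adjusted p = 0.028, held in 17).

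Housekeeping groups were close to the young normal level, with a slight downward shift that was largest against the shallow normal 6-month replicate 3. Of 28 ribosomal protein genes 23 were within 2-fold, yet 6 were called lower and the median was -0.49. Of 26 oxidative phosphorylation genes 23 were within 2-fold, 7 were lower and the median was -0.46. Of all genes, 51.7% were within 2-fold and 9.04% were lower. The mean log2 CPM of the ribosomal protein genes was 10.72 in normal 6-month replicate 3, 9.48 to 9.84 in the other 4 young normal libraries and 9.48 to 9.63 in old dwarf libraries; that of the oxidative phosphorylation genes was 7.51, 6.67 to 6.78 and 6.29 to 6.71. Without replicate 3, 1 ribosomal and 2 oxidative phosphorylation genes were lower (3.57% and 7.69%), near the 6.05% of all genes. In that fit all of both lists were within 2-fold, and the medians were -0.13 and -0.17. Atp5b, of the ATP synthase, changed by -0.53 ± 0.13, while Sdha of complex II had an interval of -0.04 to 0.37. Normal 6-month replicate 3 was also the highest library of the young normal group in Rplp0 (3479 CPM against 1702 to 2144 CPM in the others), and without it, as in 7 other alternatives, the call of Rplp0 was lost. All 7 sirtuins were within 2-fold, of which Sirt6 was also called lower (-0.46 ± 0.14) and Sirt1 was at -0.34 to 0.47. The narrowest intervals of all tested genes included those of Dcaf8 (-0.17 to 0.19), Zmynd11 (-0.19 to 0.19) and Gid8 (-0.18 to 0.20).

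**Figure D4:**
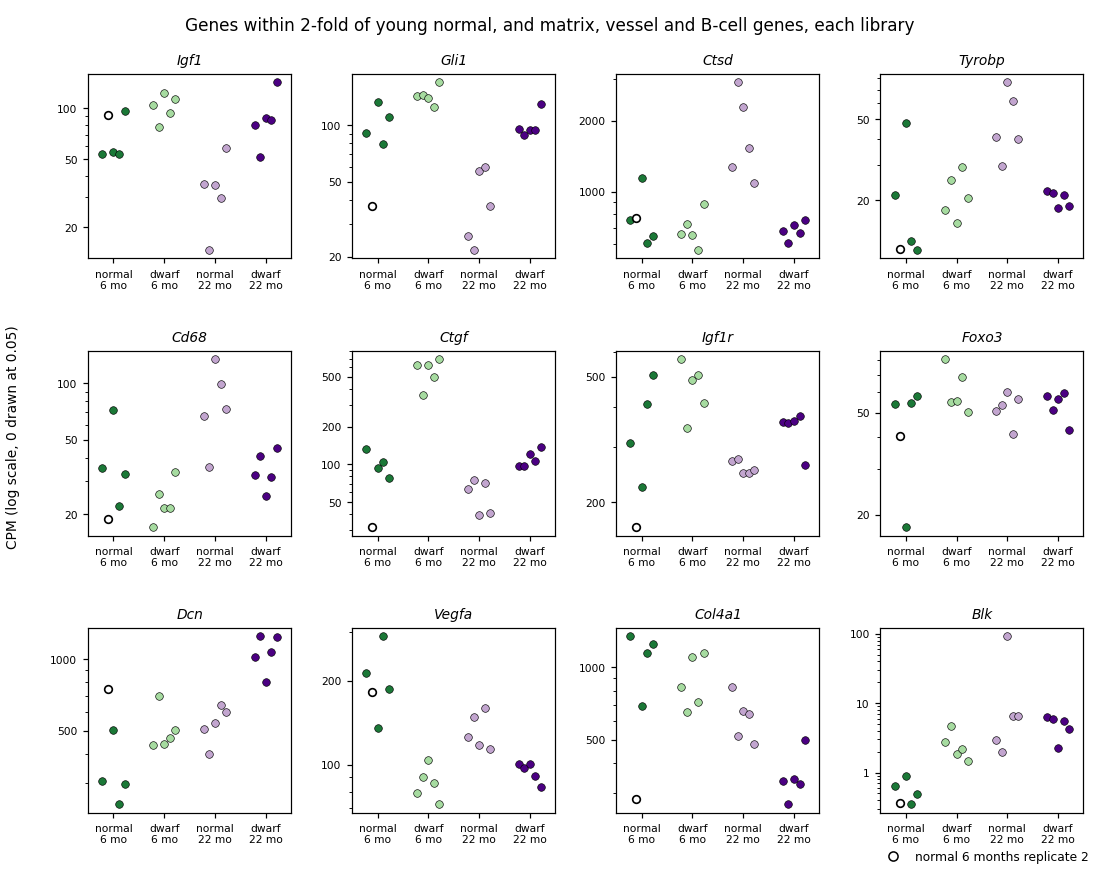
CPM (log axis) of 12 genes in each of the 20 libraries by group; the open circle is normal 6-month replicate 2. Igf1, Gli1, Ctsd, Tyrobp and Cd68 of the old dwarf libraries lie mostly in the range of the young normal libraries, with old normal medians lower in the first 2 and higher in the other 3, whereas Dcn, Vegfa, Col4a1 and Blk differ between old dwarf and young normal ovaries.

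Lymphoid and cytokine genes gave a mixed answer. Blk (chr14:63372837-63417187, minus strand), a kinase of B cells, was at 0.634, 0.365, 0.894, 0.349 and 0.495 CPM in the 5 young normal libraries and at 6.27, 5.96, 2.27, 5.47 and 4.28 CPM in the 5 old dwarf libraries, with no overlap, and rose by 3.35 ± 0.95 (adjusted p = 0.028). Cxcl13, the chemokine that draws B cells, rose by 4.51 ± 1.34 (adjusted p = 0.033, held in 14 of the 22 alternatives in which it was tested). These were the 2 of 16 B and plasma cell genes called higher, where 3.92% of all genes were, and 13 were unresolved. Among 15 T and NK cell genes Zap70, the T-cell receptor kinase, and Cd4 rose by 1.51 ± 0.38 and 1.96 ± 0.57; the first call was lost only in the fit of 10 libraries, and that of Cd4 held in 15 of 23 alternatives. Il33, an alarmin cytokine, was at 2.66, 5.41, 0, 1.13 and 1.79 CPM in the young normal and 15.2, 15.1, 9.87, 10.6 and 23.7 CPM in the old dwarf replicates and rose by 2.59 ± 0.53 (adjusted p = 0.0047, held in all 23 alternatives).

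None of 10 MHC class II genes was called with edgeR with all libraries (median 1.48, 3 at an unadjusted p under 0.05, 1 higher with DESeq2, 2 with limma voom). Without normal 6-month replicate 2, 2 of the 10 were higher, where 16.5% of all genes were. Of 26 interferon-induced genes only Ifit3 was called (2.18 ± 0.54), which is 3.85%, where 3.92% of all genes were higher. Dwarf 22-month replicate 2 was the highest library of its group in the MHC class II score (5.93 against 3.69 to 3.87), and without it the call of Ifit3 was lost. Median changes in old normal ovaries against the same young group were 4.29 for B and plasma cell genes and 2.61 for MHC class II. In old dwarf ovaries they were 1.85 and 1.48. Normal 22-month replicate 3 had the highest score of its group in both lists, 6.53 for B and plasma cells and 7.57 for MHC class II. The median library scores were closer, 2.21 in old normal and 1.97 in old dwarf ovaries for B and plasma cells. For MHC class II they were 4.16 and 3.85. How far the larger changes in old normal ovaries rest on that replicate was not tested. Ccl2, a monocyte chemokine, was unresolved at 0.48 ± 0.75, and Tgfb1 fell by 1.13 ± 0.32 (held in 13 of 23 alternatives).

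In the extracellular matrix, several collagens fell and 3 of 10 small leucine-rich proteoglycans rose, where 3.92% of all genes were higher. Of 20 collagen genes 8 were lower, 1 (Col6a5) was higher and 6 were within 2-fold, against 9.04%, 3.92% and 51.7% of all genes. Col4a1 (chr8:11198423-11312826, minus strand), of the basement membrane around follicles and vessels, was at 1345, 286, 690.2, 1142 and 1252 CPM in the 5 young normal libraries and at 338, 271, 343, 327 and 499.6 CPM in the 5 old dwarf libraries. Only young normal replicate 2 lay within the old dwarf range. It fell by 1.41 ± 0.31 (adjusted p = 0.0074), together with its neighbour Col4a2 (-1.38 ± 0.29), Col15a1 (-1.35 ± 0.30) and the fibrillar Col1a1 (-1.29 ± 0.32). Col6a2 was within 2-fold (-0.53 to 0.37), as was Hspg2, perlecan (-0.65 to 0.25). Loxl2, a collagen cross-linking enzyme, changed by -1.46 ± 0.28 and Adamts4, which cleaves proteoglycans, by -1.85 ± 0.34. The calls of Col1a1, Col15a1, Loxl2 and Adamts4 held in all 23 alternatives, and that of Col4a1 was lost in the fit of 10 libraries and with the oviduct score as a covariate (-0.56).

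Dcn (chr10:97479500-97518162, plus strand), the collagen-binding proteoglycan decorin, was at 306, 751, 502, 244 and 298 CPM in the 5 young normal libraries and at 1022, 1253, 799.7, 1076 and 1247 CPM in the 5 old dwarf libraries, and rose by 1.36 ± 0.25 (adjusted p = 0.0027). All old dwarf libraries were above all young normal ones. Fmod, fibromodulin, and Ogn, osteoglycin, rose by 1.39 ± 0.25 and 1.12 ± 0.28, and Fbln5, of elastic fibres, by 1.02 ± 0.20; each of these calls held in all 23 alternatives. Dcn and Ogn were also higher than in old normal ovaries (1.01 ± 0.25, adjusted p = 0.031, and 1.42 ± 0.28, adjusted p = 0.0087). Bgn, biglycan, was within 2-fold (-0.49 to 0.69), and Lum, lumican, reached just past it (-0.39 to 1.08). Ctgf, a matrix-associated growth regulator, was within 2-fold of young normal ovaries (-0.25 to 0.94), at 112 ± 17.7 CPM in old dwarf and 88.1 ± 37.3 CPM in young normal ovaries, while young dwarf ovaries were at 558 ± 132 CPM.

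Among vascular and fat-related genes a few members changed. Vegfa (chr17:46016993-46032377, minus strand), the main angiogenic factor, was at 213, 183, 135, 289 and 187 CPM in the 5 young normal libraries and at 101, 97.3, 101, 90.7 and 83.3 CPM in the 5 old dwarf libraries. The groups did not overlap, and the change was -1.09 ± 0.16 (adjusted p = 0.00054), held in all 23 alternatives. Aplnr, the apelin receptor of growing vessels, changed by -1.84 ± 0.32, while Kdr, the VEGF receptor of endothelium, was within 2-fold (-0.45 to 0.46). Of 18 endothelial and angiogenic genes 3 were lower, 1 was higher and 5 were within 2-fold, against 9.04%, 3.92% and 51.7% of all genes. Plin4, a lipid droplet protein, fell by 2.53 ± 0.57 (adjusted p = 0.0091) without overlap, with exons that overlap those of Hdgfrp2, but Adipoq, the defining hormone of fat cells, was unresolved (-1.13 to 1.98). Among nuclear receptors the vitamin D receptor Vdr rose by 1.52 ± 0.30, a call that held in all 23 alternatives.

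Other lists held few calls, beside 3.92% of all genes higher and 9.04% lower. Of 20 complement genes 3 were higher, C7, C4a and C1s, the last by 0.57 ± 0.17 (held in 13 of 23 alternatives); C4a has a near-identical relative. Of 18 Wnt ligands and inhibitors 2, Wnt2b and Sfrp1, were higher and 2, Wnt4 and Sfrp4, lower. Of 20 immediate early genes, which cells induce within minutes of a stimulus, 4 were lower, among them Egr2 (-1.30 ± 0.35) and Ier2 (-0.83 ± 0.23). Pparg, a receptor of granulosa and fat cells, fell by 1.12 ± 0.34 (adjusted p = 0.038, held in 8 of 23 alternatives), and Pdpn, podoplanin of lymphatic and mesothelial cells, rose by 1.15 ± 0.30. Mast cell and neutrophil lists gave no call with edgeR, no gene at an unadjusted p under 0.05 and no call with DESeq2, and 1 higher gene each with limma voom.

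Epithelial markers moved with the comparison as well. Of 12 surface epithelium genes 4 were higher in old dwarf ovaries, where 3.92% of all genes were. Without normal 6-month replicate 2, 11 were higher, where 16.5% of all genes were. Upk1b, a uroplakin of mesothelium and urothelium, was at 12.5, 18.6, 7.15, 11.4 and 8.48 CPM in the 5 young normal libraries and at 65.3, 47.1, 20.2, 62.4 and 41.8 CPM in the 5 old dwarf libraries, a rise of 1.99 ± 0.41 (adjusted p = 0.005) without overlap. Aldh1a2, a retinoic acid enzyme, and Wt1 rose by 1.34 ± 0.27 and 0.93 ± 0.24. Oviduct and cilium markers gave no rise with edgeR and all libraries (0 of 11 and 0 of 12 higher, 0 and 2 at an unadjusted p under 0.05, none higher with DESeq2). Without replicate 2 they gave 6 and 11 rises, where 16.5% of all genes were higher. With limma voom, which weights libraries by their fit, they gave 11 and 11, where 2837 of 16099 genes were higher. Tuba1c, a tubulin also used outside cilia, was the 1 cilium gene called lower. Ovgp1 was at 60.0, 4775, 56.3, 9.73 and 15.8 CPM in the young normal and 1459, 2620.4, 2597, 1376 and 1804 CPM in the old dwarf replicates, and Foxj1, the regulator of motile cilia, at 39.4, 912, 12.5, 3.36 and 4.83 and 307, 447, 469, 318 and 220.2 CPM. All old dwarf libraries and young normal replicate 2 were high, and the other 4 young normal libraries were low. The oviduct score, a mean log2 CPM over the list, was 5.66 to 6.81 in old dwarf libraries, 1.55 to 4.97 in those 4, 7.47 in replicate 2 and 5.67 to 7.68 in old normal libraries. With this score as a covariate 1501 genes were called, 828 of them lower. Because the score follows the groups apart from replicate 2, that fit cannot tell the score and the group difference apart. The part of oviduct tissue in the other results was not tested further.

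**Figure D5:**
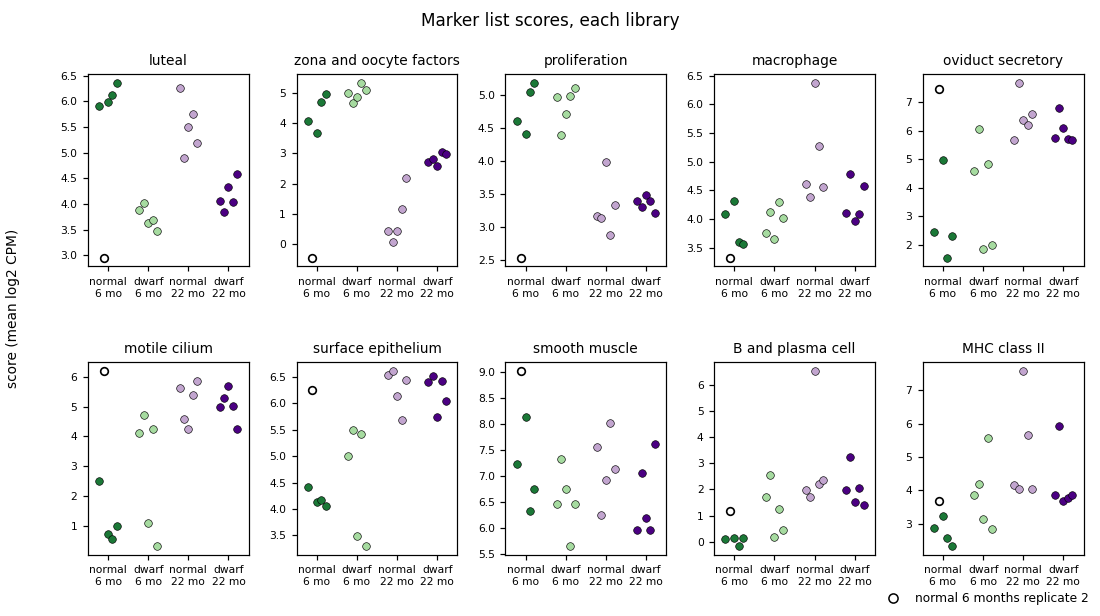
Score (mean log2 CPM of the tested genes) of 10 marker lists in each of the 20 libraries by group; the open circle is normal 6-month replicate 2. That library lies at 2.95 in the luteal and 6.18 in the motile cilium score, against 5.92 to 6.36 and 0.56 to 2.50 in the other 4 of its group, and the old dwarf libraries lie at 3.85 to 4.58 and 4.25 to 5.70.

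Whether the change with age differed between the genotypes was tested as an interaction over all 20 libraries. With edgeR no gene passed (0 of 16099, 1127 at an unadjusted p under 0.05), and without normal 6-month replicate 2, 1 gene did (Ces1d, a carboxylesterase, log2 -2.22, adjusted p = 0.018), with 2386 at an unadjusted p under 0.05. Values of the other groups given beside the comparison describe their levels, and a difference between genotypes in the change with age was not shown by this test for any other gene named.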

How the data were processed

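Ovarian RNA of 20 female mice (4 groups of 5, 1 mouse a library) was deposited as counts of reads per gene, made by the authors. The mm10 build, the counter HTSeq, the aligners TopHat2 2.0.10, TopHat and Bowtie2, and also edgeR and DESeq, are named per the submitters' processing notes (settings, strand included, not given in the sources used here). Flash-frozen ovaries were extracted with Trizol and polyA libraries made, per the labels' protocols. Summary lines that name no gene (9.84 to 17.6% of a file) were left out. The deposited annotation gave gene coordinates (mm10).

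Genes were filtered with filterByExpr (minimum count 10, total 15), scaled by TMM and fitted with 4 group means over 20 libraries in edgeR 4.0.16 (R 4.3.3; robust glmQLFit and glmQLFTest) with Benjamini-Hochberg adjustment over 16099 genes. Fold changes are on the log2 scale, SE is the change over the square root of F, and list scores use a prior count of 2. The procedure was tested on simulated counts. Alternatives used RLE and upper quartile scaling, other filters, DESeq2 1.42.0, limma 3.58.1 (voom), left-out libraries, summed libraries, an oviduct covariate and a replicate block. The labels name 1 mouse a library, and only if that holds do p-values measure the spread between mice. Sampling error of counts is covered by the fit only.

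The comparison and the 45 gene lists were chosen with earlier results of these data known. Genes named are a panel of 24, the 10 largest rises and the 10 largest falls among called, non-overlapping genes whose higher mean reached 2 CPM, up to 3 called and 2 within 2-fold per list, and the 10 narrowest intervals. Genes listed beside a list's count (such as Sfrp1, Wnt2b, C4a and Col6a5), Ces1d, and the choice among the named genes followed after their values were seen. Dwarf 22-month replicates 1 and 4 differed unusually little (chi-square 2.42 per degree of freedom) beside 11.6 for the next pair, but beyond sampling noise. They count as 2 by their labels, and whether they came from 1 mouse was not tested. With the 2 summed, 1426 genes were called, 399 of them higher. Results of some genes are not reported here.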

Additional observations from a re-analysis of the deposited data

Results flagged for a closer look

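For 127 genes named in the text and 10 list scores, the highest and the lowest library of each group of 5 was set against the other 4 by Dixon's test. Of 274 values tested in this way, 40 had a library whose gap to its neighbour passed the 95% limit. Chance gives about 1 in 20 such groups. Values of one library are not independent of each other, since they share its tissue and depth.

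In the library labelled normal 6-month replicate 2, Cxcl13 at 2.05, Ovgp1 at 4775 and Foxj1 at 912 CPM were far above the other 4 young normal libraries, and Tle6 at 17.3 and Amhr2 at 13.0 CPM far below. Of its scores (mean log2 CPM), surface epithelium at 6.25 and B and plasma cell at 1.19 stood high and luteal at 2.95 and zona and oocyte factor at -0.45 stood low. The shallow normal 6-month replicate 3 was high in 7 genes, Hsd17b3 at 3.58, Sult1e1 at 0.894, Insl3 at 3.58, Ptgds at 341, Tyrobp at 48.3, Rplp0 at 3479 and Cd4 at 4.47 CPM. Normal 6-month replicate 4 was high in Srxn1 at 96.2 and Cyp19a1 at 45.2 CPM.

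Among the old dwarf libraries, replicate 2 was low in Cyp11a1 at 62.2, Cyp21a1 at 7.38, C7 at 21.4, Gsta3 at 43.1, Nqo1 at 11.1 and Cyp19a1 at 0.662 CPM, most of them genes of steroid making or detoxification, and high in Plin4 at 97.7 and Ifit3 at 21.3 CPM and in the MHC class II score at 5.93. Replicate 5 was high in Gli1 at 129.6, Tgfb1 at 62.1, Col1a1 at 626, Col15a1 at 89.2, Loxl2 at 95.7 and Bgn at 1023 CPM and low in Atm at 18.6, Igf1r at 264 and Ghr at 31.6 CPM. Replicate 3 was high in Pdk1 at 53.6 and Gid8 at 43.6 CPM and low in Kdr at 47.3 and Vdr at 24.8 CPM. With edgeR and all libraries no change with age passed the test for a difference between the genotypes.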

How the results depend on the processing

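Scaling, filters, non-robust estimates and left-out title numbers kept the counts of called genes within 1.5 times of 2086, at 1752 to 2100, and no called change of a named gene reversed its direction under any alternative run. Of the uncalled ones several crossed 0, among them Fshr (-1.04 to 1.69), Cyp17a1 (-0.73 to 1.64), Cyp19a1 (-2.56 to 1.37) and Prlr (-1.38 to 0.22), each highest with the oviduct covariate. The fit of the 10 libraries alone called 513 genes (265 higher, 248 lower), and 44 of the named genes lost their call. Leaving out single libraries gave 1245 to 4800 called genes, 386 to 2685 higher, 693 to 2115 lower and 7645 to 8845 within 2-fold. The lowest counts of called and lower genes came without dwarf 22-month replicate 3, the lowest count of higher genes without dwarf 22-month replicate 1 (414 without replicate 4 and 400 without normal 6-month replicate 4), and the highest counts of called genes without normal 6-month replicate 2. With 3 doubtful libraries left out (young normal replicates 2 and 3, old normal replicate 3), 5446 genes were called (2889 higher, 2557 lower). With dwarf 22-month replicates 1 and 4 summed, 399 genes were higher. DESeq2 called 982 genes higher, and limma voom with library weights called 6029 (2837 higher, 3192 lower). The oviduct covariate left 828 lower genes, and 43 named genes lost their call. Against a 2-fold change 56 genes passed (36 higher, 20 lower), and at an adjusted p under 0.01 613 did (208 and 405). A margin of 1.5-fold held 3365 genes. Apart from the stricter thresholds, the cause of these shifts was not tested.

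The replicate numbers did not pair the samples (correlations of same-numbered libraries from -0.0814 to 0.377), and with the replicate block 1930 genes were called (778 higher, 1152 lower), while 11 named genes lost their call. Normal 6-month replicate 3, with 1365640 counts, limits the precision of low young normal values.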
